A study of Homo sapiens with 9 samples.

Results

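The comparison sets the 3 arrays of SK-N-AS cells taken at 24 h against the 3 arrays taken at 0 h, which are 6 of the 9 arrays of the study. SK-N-AS is an established human neuroblastoma line, a tumour line of the sympathetic nervous lineage. Arrays were chosen by their labelled hour and paired by series. A first series was given RE-EX1, a construct for full-length NRSF, another was given HZ4 for a truncated NRSF, and the last was left untreated. NRSF is encoded by REST and represses neuronal genes. The 24 h group therefore holds cells 24 h after RE-EX1, 24 h after HZ4, and untreated cells of the same hour. The 0 h group holds the baseline array of each of these series, and the labels name the construct for the baseline arrays too. All cells grew in the same DMEM with serum, per the labels. How the constructs entered the cells, and what was done to the untreated cells at 0 h, is not given in the labels. Each series has 1 array per hour and the labels name no separate cultures, so the series are the only repeats. They differ in construct, so the spread between them also holds any difference between constructs in the change with time. P-values measure the spread between these arrays alone, with each probe set's variance drawn toward that of probe sets of like brightness. The series description mentions repeated samples in several batches, but no label ties an array to a batch or says whether an array pools cultures, so that spread may hold technical or biological variation. The question was which changes between 0 and 24 h all 3 series shared, starting with the probe sets that read brightest.

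When the state of a culture changes, a first wave of genes answers within hours. Many of these genes encode transcription factors, cytokines and growth factors, and others encode the phosphatases, kinase inhibitors and RNA decay factors that limit the same signals. A cell line cultured alone also changes its cell surface and matrix genes with time and density. On arrays of bulk RNA, fewer cells of a kind and less RNA per cell cannot be told apart.

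Signal is the deposited linear intensity of a probe set, a group of short probes that read 1 transcript region. The median signal was 33.98, 42.67 and 30.96 at 24 h in the series with full-length NRSF, truncated NRSF and no construct, against 36.97, 30.87 and 33.87 at 0 h. The truncated 24 h array stood apart. Its median correlation with the other arrays was 0.8835 across tested probe sets, against 0.8969 to 0.9119 for the remaining arrays, and probe sets are not independent replicates. Its dimmest 20% of probe sets read a median of 0.51 log2 above their own means, against 0.01 to 0.31 elsewhere. The ratio of 3' to 5' control probe sets for ACTB was 3.63, 3.23 and 2.45 at 24 h, against 4.19, 2.25 and 2.72 at 0 h. The line's own markers were uneven. VIM read 9701 to 14403, CD44 3906 to 4876 and GATA3 1346 to 1912, and PRRX1 and FN1 are given below. ISL1 read 194 to 485, PHOX2A 72.2 to 146 and HAND2 28.3 to 84.4, and the ranges of PHOX2A and HAND2 overlap that of PTPRC of blood. TH and DBH, enzymes of catecholamine synthesis, were too dim to be tested. The summed signal of the line's markers was 18164 to 20294 at 24 h, against 23578 to 26931 at 0 h. Of the markers of other cell types CD3E, LYZ and CD14 of blood, CDH5 and VWF of endothelium, and SOX10 and S100B of Schwann cells read between 0.901 and 43.1 on the 6 arrays. Other members of these lists were bright enough to be tested, with PTPRC at 57.8 to 164, HBB, which is uncertain, at 15.3 to 71.2, PECAM1 at 106 to 168, PMEL at 4.62 to 50.9 and MITF at 86.1 to 250.5, and none of them was called. The summed signal of the blood markers was 155 to 237 at 24 h, against 135 to 171 at 0 h, and that of the endothelial markers 131 to 226 at 24 h, against 142 to 220 at 0 h. The Schwann and melanocyte markers summed to 178 to 327 at 24 h, against 122 to 194 at 0 h. The epithelial markers summed to 3606 to 4529 at 24 h, against 2601 to 3959 at 0 h, nearly all of it from KRT18, which is uncertain, while EPCAM and CDH1 read at most 21.1.

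Between 24 and 0 h, large numbers of probe sets moved in both directions and in the same direction in every series. A linear model fitted in limma to all 9 arrays, with hour and series as terms, called 1876 of 32768 tested probe sets up (5.73%) and 1881 down (5.74%) at an adjusted p under 0.05. Of the 3757 calls, 3732 had 1 sign in 3 of 3 series (99.3%), against 42.5% of all tested probe sets. Calling and agreement use the same values, so the first share describes the calls and is no separate support for them. Without the truncated 24 h array the calls numbered 1156 up and 1081 down. Leaving out the full-length, truncated or untreated series gave 952, 1122 and 1219 calls up and 895, 881 and 1214 down. Each probe set's variance was drawn toward a trend over brightness, and without this trend only 183 probe sets were called up and 60 down, so the number of calls rests on that choice.

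Bright probe sets carried most of the calls. The bright tier holds the 10923 tested probe sets whose mean signal over 9 arrays was at least 195.8, whichever hour was higher. In it 1303 were called up (11.9%) and 1383 down (12.7%), and without the truncated 24 h array 874 and 788. Below the tier 573 of 21845 were called up (2.62%) and 498 down (2.28%). The median standard error of a log2 change was 0.18 in the bright tier and 0.55 below it. In the plot of change against brightness the calls open like a funnel, since a dim probe set needed a much larger change to pass.

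**Figure D1:**
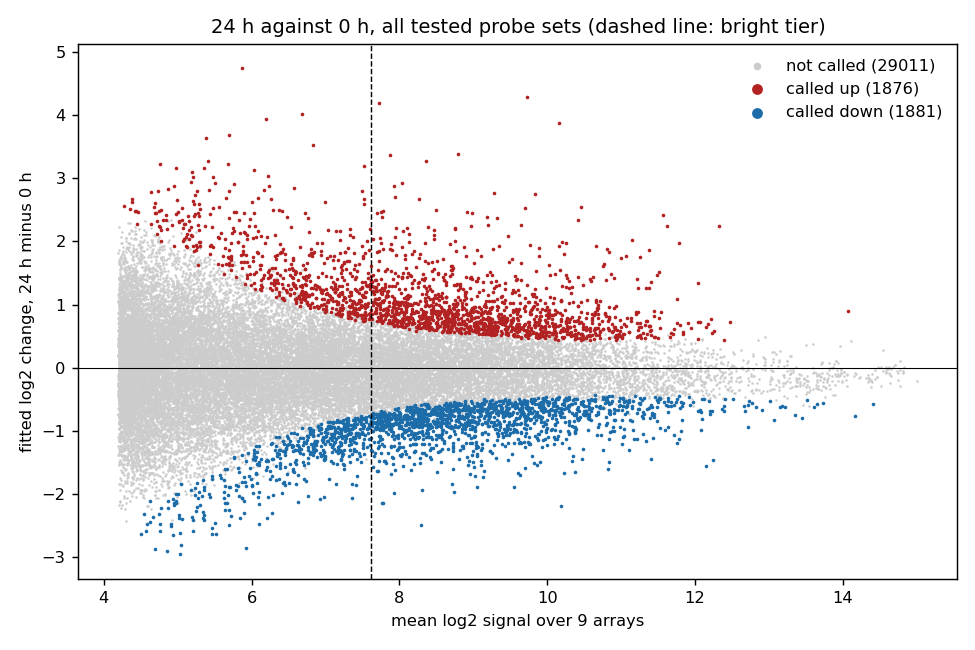
Fitted log2 change (24 h minus 0 h, y axis) against mean log2 signal over 9 arrays (x axis) for 32768 tested probe sets. Red points are the 1876 called up, blue points the 1881 called down, grey points the rest, and the dashed line marks the lower edge of the bright tier.

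A count without any model gives the same contrast between the tiers. Of bright probe sets, 7.86% stood 2-fold or more apart between 24 and 0 h in the full-length series, 14.5% in the truncated series and 8.07% in untreated cells. Pairs of 0 h arrays, which differ in no hour, stood so far apart for 1.03% to 2.09% of bright probe sets. Below the tier, the 24 h to 0 h shares were 29.9% to 39.7%, against at most 28.4% between 0 h arrays, so a single dim probe set says little here. Over all tested probe sets, 608 were 2-fold up in each of 3 series (1.86%) and 373 were 2-fold down in each (1.14%), and of these 442 and 239 were called. In the bright tier 199 were 2-fold up in each series and 95 were 2-fold down in each, and all of these were called. A 4-fold difference in each series was met by 23 bright probe sets upward and by 0 downward.

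**Figure D2:**
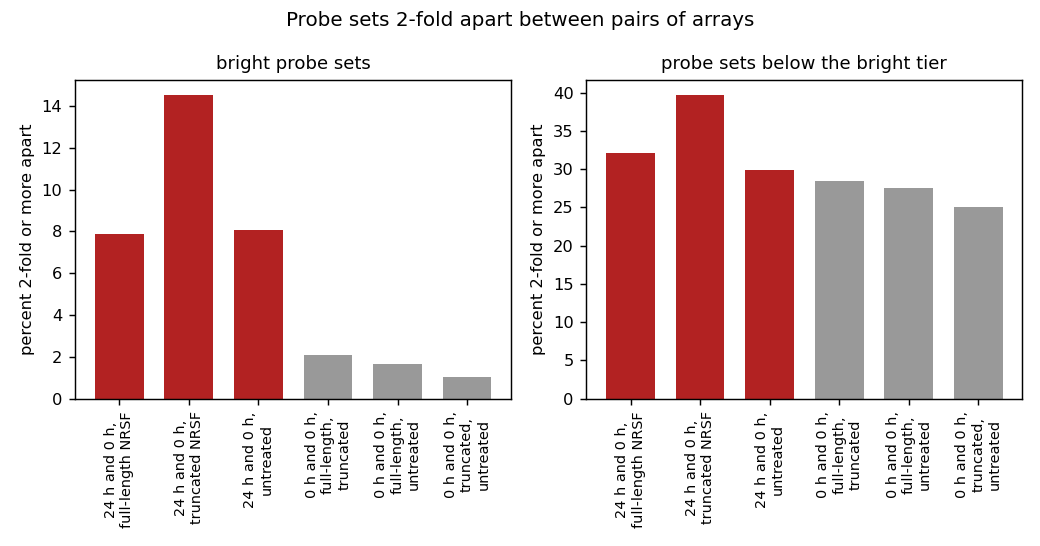
Percent of probe sets 2-fold or more apart (y axis) between the 24 h and 0 h arrays of each series (red) and between pairs of 0 h arrays (grey), for the bright tier (left) and the probe sets below it (right). In the bright tier the lowest red bar is 7.86% and the highest grey bar 2.09%, while below it the lowest red bar is 29.9% and the highest grey bar 28.4%.

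Taking each gene by its brightest probe set, 1009 of 13804 genes were called up (7.31%) and 1003 down (7.27%), and 647 and 556 without the truncated 24 h array. The genes named first are the 20 bright genes in each direction whose smallest change among the 3 series was greatest. Each of the 40 was called, and none had overlapping groups, as this choice favours. Adjusted p-values given below come from the limma fit with the variance trend, and their small size rests on it. In the same fit without the trend, IL24, CXCL8 and LGR5 had adjusted p = 0.010, 0.039 and 0.040. There 19 of the 20 genes up and 12 of the 20 down were called. In the values that follow, the order within an hour is full-length, truncated, untreated.

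Secreted signals led the upward list. IL24, an IL10 family cytokine, read 1902, 2373 and 1927 at 24 h, against 119, 113 and 87.2 at 0 h. That was a rise of 4.29 ± 0.16 log2 (standard error; adjusted p = 2.5e-12), with no other tested probe set to compare. CXCL8, a neutrophil chemokine read by a probe set that may cross-hybridize and is uncertain, had 3045, 3771 and 5031 at 24 h, against 326, 174 and 318 at 0 h (3.88 ± 0.19; adjusted p = 3.3e-10). Its other probe set rose by 4.19. IL11, a cytokine of the IL6 family, read 748, 658 and 633 at 24 h, against 111, 127 and 121 at 0 h (2.50 ± 0.19; adjusted p = 6.4e-08). All 24 h arrays lay above all 0 h arrays for each of the 3 genes.

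Enzymes and transcription factors followed, again with no overlap between the hours. ODC1, the rate-limiting enzyme of polyamine synthesis, was among the brightest, with 6186, 7001 and 6368 at 24 h, against 1346, 1364 and 1403 at 0 h. Its series differed by little, and the rise was 2.25 ± 0.14 (adjusted p = 9.6e-09). HMOX1, which degrades heme, had 367, 529 and 416 at 24 h, against 58.3, 51.9 and 66.4 at 0 h (2.88 ± 0.21; adjusted p = 5.6e-08). UPP1, a uridine phosphorylase of pyrimidine salvage, had 795, 1151 and 561, against 168, 204 and 146 (2.23 ± 0.20; adjusted p = 6.0e-07). MXD1, a MAX partner that opposes MYC at its target genes, read 630, 622 and 572 at 24 h, against 108, 81.9 and 58.2 at 0 h (2.92 ± 0.21; adjusted p = 4.2e-08), and its other probe sets rose less, by 1.14 and 1.30. KLF4, a zinc finger factor, had 1717, 1592 and 1498, against 269, 177 and 271 (2.77 ± 0.17), and ZNF697, a zinc finger gene of little known role, had 3430, 3662 and 3352, against 560, 490 and 770 (2.55 ± 0.16). The rise of ATF3, a stress-induced bZIP factor, was the most uneven: 723, 877 and 805 at 24 h, against 116, 120 and 33.6 at 0 h, so its larger change in untreated cells came from a lower 0 h value. ATF3 kept its call in 13 of 14 alternative settings, losing it without the variance trend.

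Feedback genes made up much of the rest. DUSP1 and DUSP5 encode phosphatases that switch off MAP kinases. DUSP1 read 1645, 2270 and 2168 at 24 h, against 393, 282 and 239 at 0 h (2.75 ± 0.19; adjusted p = 2.1e-08), and both of its other probe sets were called up as well. DUSP5 read 1257, 1374 and 966, against 216, 208 and 220 (2.47 ± 0.18). PPP1R15A, also known as GADD34, which restores translation after stress by recruiting a phosphatase to eIF2alpha, had 2565, 1376 and 1578, against 322, 333 and 266 (2.54 ± 0.18). CDKN1A, the cyclin-dependent kinase inhibitor p21, had 939, 871 and 708, against 218, 221 and 129 (2.18 ± 0.22). SIK1, a kinase that restrains CREB coactivators, had 581, 410 and 431, against 118, 82.4 and 60.4 (2.49 ± 0.23). Its other probe set changed by 0.06 and the gene lost its call when probe sets were averaged, so SIK1 is uncertain.

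The remaining bright genes called up were RND3 at 2.42 ± 0.15 log2, ARRDC4, an alpha-arrestin, at 2.67 ± 0.21, KBTBD8, an adaptor of the CUL3 ubiquitin ligase, at 2.47 ± 0.22, CPEB2, which binds polyadenylation elements of mRNAs, at 2.21 ± 0.19, and C11orf96 at 3.28 ± 0.21. RND3 read 6484, 6029 and 4619 at 24 h, against 1435, 1023 and 802 at 0 h. Of the 20 genes, 18 kept their calls in every alternative tried, all 14 of their other tested probe sets went up, and 9 of these were called.

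**Figure D3:**
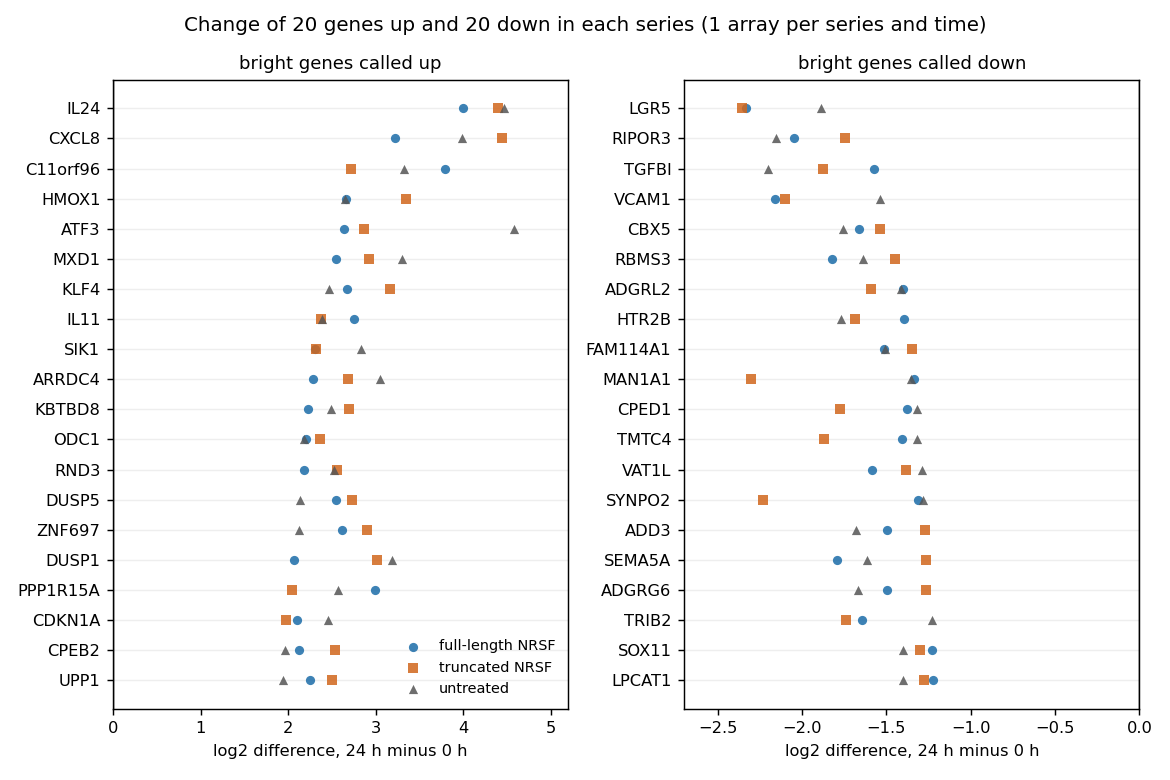
Log2 difference between 24 h and 0 h in each series (x axis) for the 20 bright genes called up (left) and the 20 called down (right), ordered by the smallest of the 3 changes. Each symbol is 1 array against 1 array; the smallest change lies between 1.94 and 3.999 for the genes up and between 1.22 and 1.89 in size for the genes down.

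Promoters of these genes were read for 2 motifs of stress and growth signalling, since the genes rose together in every series. The motifs were the AP-1 site TGANTCA, bound by FOS, JUN and related dimers, and the cAMP response element TGACGTCA, bound by CREB and ATF factors. They were searched on both strands, and a match of one holds no match of the other, because of their letters. The windows run from 250 bases before to 50 bases after the gene start, from RefSeq on GRCh38.p14, and 16 of the 20 genes had one. An AP-1 site stood in 3 of the 16 windows and a cAMP response element in 2, and these windows are shown because they hold the motifs at issue, in capitals, in genes that rose in all 3 series.
CXCL8, chr4:73740319-73740618, plus strand: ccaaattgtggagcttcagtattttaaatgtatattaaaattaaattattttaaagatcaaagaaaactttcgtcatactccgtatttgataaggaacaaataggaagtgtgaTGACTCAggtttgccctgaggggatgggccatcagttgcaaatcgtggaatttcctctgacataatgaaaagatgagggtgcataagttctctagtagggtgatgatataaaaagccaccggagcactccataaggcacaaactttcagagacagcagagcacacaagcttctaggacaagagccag
IL11, chr19:55370414-55370713, minus strand: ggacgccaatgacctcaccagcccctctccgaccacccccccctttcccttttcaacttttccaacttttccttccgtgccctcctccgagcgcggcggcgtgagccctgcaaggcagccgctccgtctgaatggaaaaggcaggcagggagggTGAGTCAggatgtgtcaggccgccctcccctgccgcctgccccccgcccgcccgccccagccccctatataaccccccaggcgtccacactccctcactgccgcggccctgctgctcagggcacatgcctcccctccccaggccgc
ARRDC4, chr15:97960453-97960752, plus strand: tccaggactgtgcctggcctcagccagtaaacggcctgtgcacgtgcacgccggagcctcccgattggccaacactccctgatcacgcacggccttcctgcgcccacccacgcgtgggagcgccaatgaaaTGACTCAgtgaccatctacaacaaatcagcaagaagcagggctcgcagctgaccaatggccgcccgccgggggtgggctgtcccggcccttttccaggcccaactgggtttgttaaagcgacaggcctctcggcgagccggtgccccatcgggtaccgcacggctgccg
DUSP1, chr5:172771146-172771445, minus strand: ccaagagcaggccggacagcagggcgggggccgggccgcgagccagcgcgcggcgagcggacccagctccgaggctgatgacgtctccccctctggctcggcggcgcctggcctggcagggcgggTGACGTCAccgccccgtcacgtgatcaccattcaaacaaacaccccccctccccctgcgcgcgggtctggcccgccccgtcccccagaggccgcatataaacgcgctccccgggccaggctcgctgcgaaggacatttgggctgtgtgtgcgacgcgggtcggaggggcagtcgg
PPP1R15A, chr19:48872171-48872470, plus strand: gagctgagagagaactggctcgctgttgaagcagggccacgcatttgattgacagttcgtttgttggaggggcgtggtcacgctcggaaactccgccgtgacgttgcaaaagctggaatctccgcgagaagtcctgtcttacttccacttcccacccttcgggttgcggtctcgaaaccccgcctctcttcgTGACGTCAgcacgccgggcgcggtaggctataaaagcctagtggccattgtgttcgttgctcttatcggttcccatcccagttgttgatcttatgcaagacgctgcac
In these windows the motif starts 137, 96 and 119 bases before the gene start in CXCL8, IL11 and ARRDC4 (AP-1), and 125 and 58 bases before it in DUSP1 and PPP1R15A (cAMP response element). Of the 20 bright genes called down, 17 had a window, of which 0 held an AP-1 site and 1, that of TMTC4, held a cAMP response element. Over all genes called up with a window, 6.68% of 823 held an AP-1 site, against 2.87% of 835 called down, 4.71% of 11152 tested and 7.76% of all 27305 windows. The cAMP response element was in 4.01%, 1.92%, 3.08% and 1.98% of the same sets. Among genes changed by 2-fold or more the cAMP response element was in 2.90% of 310 called up and 2.52% of 238 called down, and the AP-1 site in 8.71% and 2.94%. An E2F site (TTTGGCGC or TTTCCCGC), a motif of cell cycle promoters, ran the other way, at 2.55% of genes called up and 5.51% of genes called down, against 3.46% of those tested. The cell cycle element CHR (TTTGAA) was in 11.2%, 14.3% and 10.2% of these sets, and the CCAAT box in 36.8%, 38.0% and 36.5%. The heat shock element (GAANNTTC) was in 4.25%, 5.15% and 4.88%, and the CArG box in 1.70%, 1.08% and 1.10%. These shares are descriptions of letters in short windows and were not tested.

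Downward, the fitted changes of the 20 bright genes ran from −2.19 to −1.30, against 2.18 to 4.29 upward. LGR5, a receptor for R-spondins that strengthens WNT signalling, had 557, 528 and 759 at 24 h, against 2804, 2699 and 2812 at 0 h. The 0 h arrays lay close together, and the fall was −2.19 ± 0.15 log2 (adjusted p = 2.1e-08), with −2.14 on the gene's other probe set. VCAM1, a cell adhesion molecule of the immunoglobulin family, had 174, 151 and 182, against 780, 648 and 529 (−1.93 ± 0.20; adjusted p = 2.2e-06). TGFBI, a matrix protein that binds collagens and integrins, had 503, 411 and 402, against 1499, 1510 and 1850 (−1.89 ± 0.17; adjusted p = 6.3e-07). HTR2B, a serotonin receptor, read 131, 128 and 130 at 24 h, almost the same on each array, against 346, 414 and 443 at 0 h (−1.62 ± 0.21; adjusted p = 4.7e-05). SEMA5A, a guidance cue of axons, had 139, 160 and 165, against 481, 385 and 506 (−1.56 ± 0.21). Both adhesion receptors coupled to G proteins on the list, ADGRL2 (−1.47 ± 0.16) and ADGRG6 (−1.48 ± 0.17), fell by nearly the same amount.

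Chromatin, cytoskeleton and other genes completed it. CBX5, the heterochromatin protein HP1 alpha, had 757, 614 and 676 at 24 h, against 2401, 1785 and 2286 at 0 h (−1.65 ± 0.15; adjusted p = 5.5e-07). All 4 of its other probe sets were lower too, 2 of them called. ADD3, an adducin that links spectrin to actin, had 1302, 1171 and 1126, against 3681, 2830 and 3615 (−1.48 ± 0.15; adjusted p = 1.9e-06), and 3 of 3 other probe sets were called down. SYNPO2, an actin-binding protein, had 1234, 691 and 1097, against 3065, 3242 and 2667 (−1.61 ± 0.17). MAN1A1, a mannosidase that trims glycans in the Golgi, had 611, 257 and 596, against 1540, 1272 and 1520 (−1.66 ± 0.22). In SYNPO2 and MAN1A1 the truncated 24 h array was the lowest, and without it both were still called. The others were RIPOR3 (−1.98), RBMS3 (−1.64), TRIB2 (−1.54), TMTC4 (−1.53), CPED1 (−1.49), FAM114A1 (−1.46), VAT1L (−1.42), SOX11 (−1.31) and LPCAT1 (−1.30). Among these TRIB2 is a pseudokinase, TMTC4 a mannosyltransferase, RBMS3 an RNA-binding protein, SOX11 a factor of immature neurons and LPCAT1 an enzyme of phospholipid remodelling. Of the 20 genes, 12 kept their calls in every alternative and the other 8 lost them without the variance trend. Of their other tested probe sets, 28 of 30 were lower and 20 were called.

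**Figure D4:**
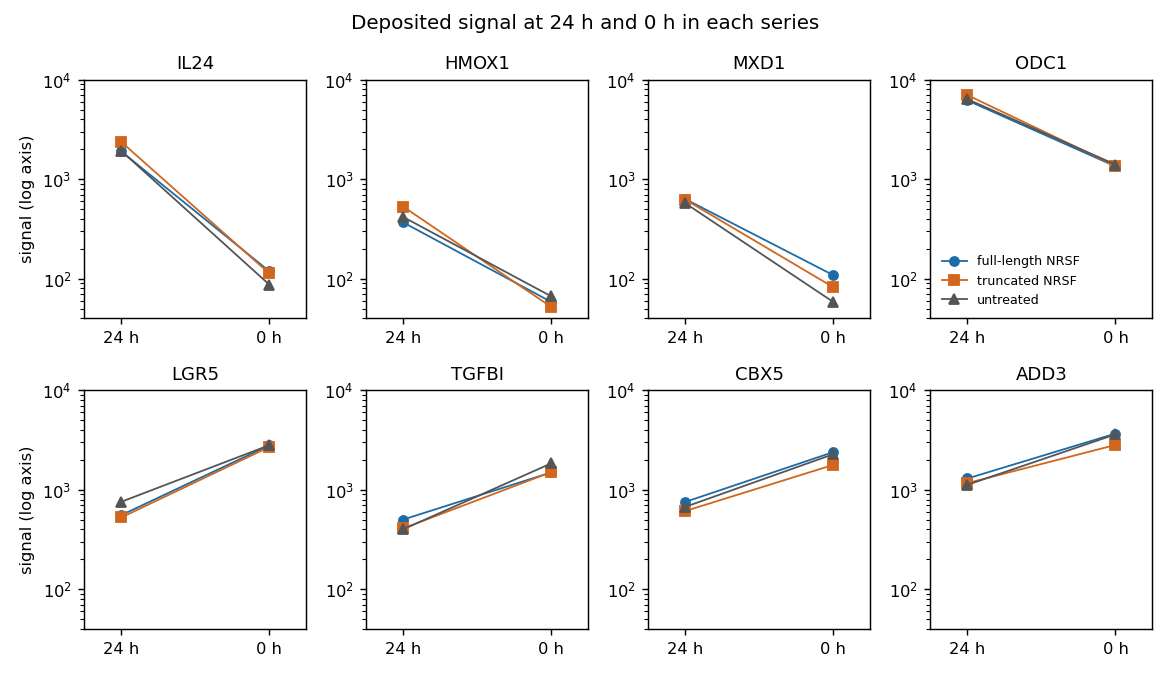
Deposited signal (y axis, log scale) at 24 h (left) and 0 h (right) for 8 of the named genes, 1 line per series. IL24, HMOX1, MXD1 and ODC1 are higher at 24 h and LGR5, TGFBI, CBX5 and ADD3 lower, with no overlap between the hours.

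Below the bright tier, many of the signals lie near the floor of 8.266, and a gene could be tested through the hours where it is high alone. Of the 10 genes named upward, 8 had a 0 h array at the floor, and 7 had a 0 h mean log2 under the filter of 4.195, so their changes are given as descriptions and as lower bounds where an array is at the floor. DLX2, a homeobox gene of forebrain interneurons, read 395, 238.5 and 539 at 24 h, against 7.47, 32.2 and 44.9 at 0 h, where the full-length array is at the floor (at least 4.02 log2 on this probe set). With its probe sets averaged DLX2 stood lower, at 2.51, and was still called. INHBA, a subunit of activins, had 192, 246 and 228, against 32.0, 45.7 and 44.8 (2.45 ± 0.30; adjusted p = 1.8e-05). PMEPA1, an inhibitor of TGF-beta signalling, had 157, 152 and 163, against 20.7, 28.1 and 29.1 (2.62 ± 0.39; adjusted p = 0.00019). INHBA and PMEPA1 were the only genes of the 10 with no array at the floor. CCL20, a chemokine, had 76.6, 93.9 and 204, against 8.15, 9.43 and 26.3, or at least 3.16 log2. DACT1, an antagonist of WNT signalling, stood at least 3.27 log2 higher, OXTR, the oxytocin receptor, at least 2.66, and RBM33-DT, DORIP1, PLPP4 and KLHL25 at least 3.09, 3.01, 2.79 and 2.43. PLPP4, at the floor on every 0 h array, was no longer called without the truncated 24 h array, and averaging probe sets ended the calls of PMEPA1 and DORIP1.

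Among dim genes called down, HMG20B, a partner of the demethylase LSD1, was the brightest, at 71.0, 66.1 and 89.95 at 24 h, against 279, 368 and 279 at 0 h (−2.03 ± 0.31; adjusted p = 0.00021). It alone of the 10 kept its call in every alternative. CALML4, a calmodulin-like gene, had 33.1, 20.04 and 16.4, against 135, 166 and 95.7 (−2.54 ± 0.56; adjusted p = 0.0050). In 5 of the 10, SEMA6A, FCGR2A, PCED1B, CMAHP and RERG, the 24 h mean was under the filter, so these passed it through their higher hours. SEMA6A, a semaphorin, was at the floor on every 24 h array and read 57.6, 45.5 and 37.1 at 0 h, and its other probe set changed by 0.07. The other 7 were FCGR2A, PCED1B, CMAHP, RERG, SCAI, TMEM187 and ASIC2, at −2.36 to −1.77 with arrays of FCGR2A and PCED1B at the floor, and 5 to 10 of 13 alternatives kept their calls. FCGR2A, PCED1B, TMEM187 and ASIC2 were not called without the truncated 24 h array.

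Different probe sets of a gene give separate readings on the same arrays. Of 6885 genes with at least 2 tested probe sets, 320 had 2 or more called up, 243 had 2 or more called down, and 35 had calls in both directions. The 1280 such genes called on their brightest probe set had 2574 other probe sets, of which 78.0% went in the same direction, against 61.3% for genes not called. Of these others 631 were called the same way and 35 the opposite way. The widest splits included SRSF1, a splicing factor. Its brightest probe set changed by 0.14 and was not called. Its probe sets of mean log2 10.5 rose by 0.50 and 0.52, while dimmer ones fell by 2.14 and 2.17. PPM1A, a phosphatase, rose by 1.30 on one probe set and fell by 1.38 on another, and TNRC6A, a scaffold of microRNA silencing, rose by 0.72 and fell by 2.62. DIDO1 and NISCH were split likewise. Which transcript each probe set reads was not analysed here, so no single direction is given for such genes.

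Genes were then grouped by function, in 27 lists that leave aside the sets most often read for stress, mitosis and NRSF targets. Each list is described by its calls and its median, beside 7.31% up, 7.27% down and a median of −0.03 log2 over all 13804 genes. Without the truncated 24 h array these shares were 4.69% and 4.03%, against which the lists' counts without it are to be read. Except for SOCS3, the 24 h and 0 h arrays did not overlap in any list member given below with its 6 signals. Such members were chosen for a large change or after their values were seen, which favours this. It is therefore no support for the lists, and the share over all genes is not given here.

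**Figure D5:**
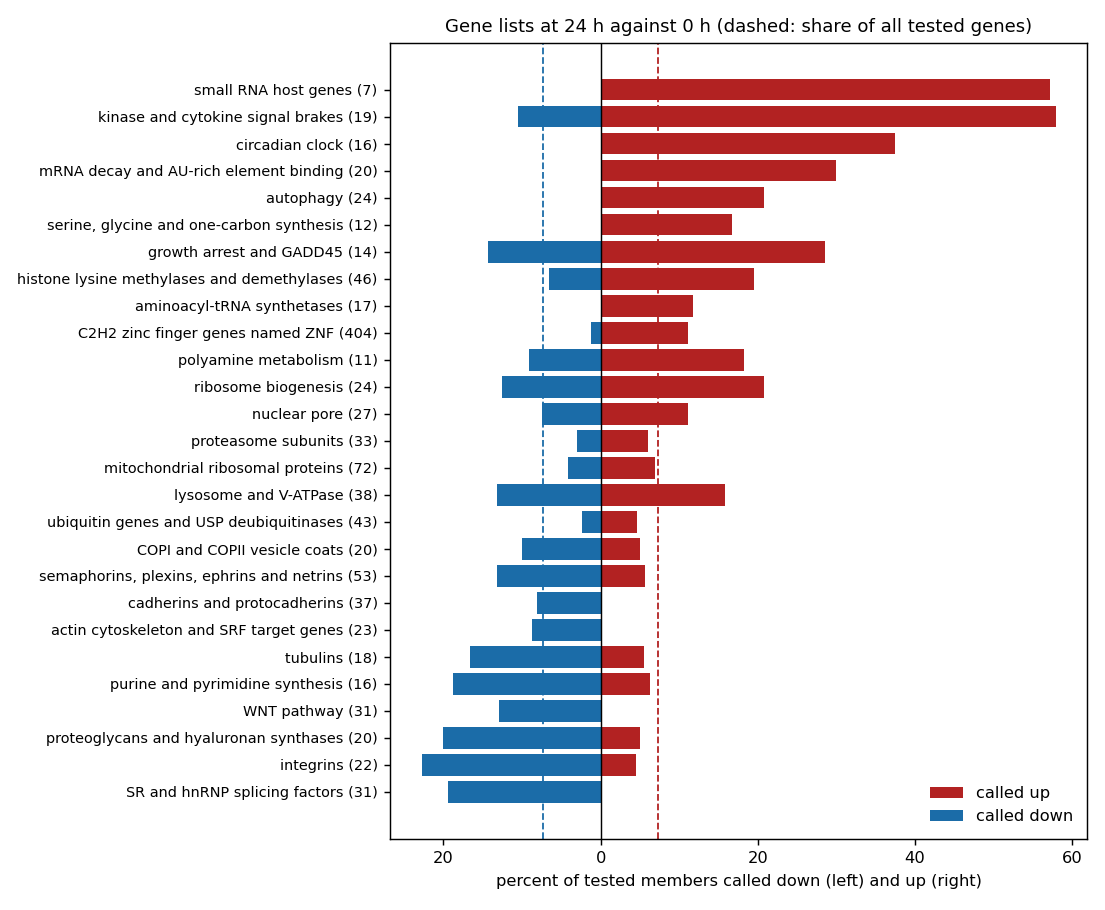
Percent of tested members called up (red, right) and down (blue, left) at 24 h against 0 h in each of 27 gene lists, with the number of tested members in brackets. Dashed lines mark 7.31% up and 7.27% down, the shares over all tested genes. The signal brake list reaches 57.9% up and the list of integrin symbols 22.7% down. Both lists count called members that are no brakes or no integrins in the strict sense, as named in the text.

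Inhibitors of kinase and cytokine signalling had the most calls for their number. Of 19 tested, 11 rose (57.9%) and 2 fell (10.5%), with a median of 0.78 log2, and without the truncated 24 h array 11 rose and 1 fell. ERRFI1, an inhibitor of the EGF receptor, read 1766, 1979 and 1857 at 24 h, against 698, 722 and 729 at 0 h (1.38 ± 0.14; adjusted p = 2.0e-06). TNFAIP3, also called A20, which limits NF-kB signalling, had 676, 616 and 695, against 274, 311 and 176 (1.42 ± 0.21), and TRIB1, a pseudokinase, had 935, 867 and 1197, against 324, 356 and 393 (1.47 ± 0.16). SOCS2 and SOCS5, suppressors of cytokine signalling, rose by 1.29 ± 0.26 and 0.78 ± 0.15. SOCS3, of the same family, was called down, yet it read 228, 121 and 474 at 24 h, against 557, 645 and 446 at 0 h. Only the 2 construct series were lower, and the change was 0.09 in untreated cells. TRIB2, already named, was the other member called down, while TRIB1 and TRIB3 (1.14 ± 0.17) rose. PPP1R15A, PHLDA2 (1.42 ± 0.20), SERTAD1 (1.44 ± 0.21), SERTAD2 (1.12 ± 0.16) and PIM3 (0.70 ± 0.20) completed the 11. PHLDA2 stood at 0.24 (adjusted p = 0.64) with its probe sets averaged and was no longer called, and neither was SOCS3. Of the 11, PIM3 is a kinase and the SERTAD proteins are transcriptional coregulators, so they are no brakes in the strict sense.

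Of 16 circadian clock genes 6 were called up, 0 called down (2 at an unadjusted p under 0.05), with a median of 0.43, and 3 members were lower in all 3 series. Most of the 6 encode repressors of the clock. BHLHE40 had 957, 1074 and 1019 at 24 h, against 300, 310 and 213 at 0 h (1.91 ± 0.18; adjusted p = 1.3e-06). Its relative BHLHE41 rose by 1.33 ± 0.19, the cryptochrome CRY1 by 1.12 ± 0.19, NFIL3 by 0.73 ± 0.15 and the nuclear receptor NR1D2 by 0.67 ± 0.19. BMAL1, an activator, rose by 1.13 ± 0.23, with 283, 372 and 254 at 24 h, against 106, 124 and 195 at 0 h, where untreated cells differed least. NR1D2 was no longer called when the truncated 24 h array was left out, nor BHLHE41 with probe sets averaged. Leaving out the truncated series left 4 called up.

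Of 20 genes for proteins that bind AU-rich elements or shorten mRNA tails 6 were called up and 0 down (3 at an unadjusted p under 0.05). The median was 0.13, and 5 members were lower in all 3 series. BTG1, a partner of the CCR4-NOT deadenylase and an inhibitor of proliferation, had 1584, 1713 and 1801 at 24 h, against 392, 418 and 518 at 0 h (1.95 ± 0.16; adjusted p = 1.7e-07). ZFP36, tristetraprolin, which marks cytokine mRNAs for decay, had 480, 564 and 436, against 107, 175 and 125 (1.88 ± 0.21), and its relatives ZFP36L1 and ZFP36L2 rose by 0.86 ± 0.16 and 0.70 ± 0.14. DCP2, the decapping enzyme, and ZC3H12C completed the 6, at 0.97 and 0.83. All 6 were called without the truncated 24 h array as well. With probe sets averaged 5 were called up and 2 down, ZFP36L2 losing its call, and 4 were called up without the full-length series.

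Growth arrest genes split. Besides CDKN1A, GADD45A rose to 1946, 2498 and 2223 at 24 h, against 867, 772 and 749 at 0 h (1.48 ± 0.15; adjusted p = 2.2e-06). GADD45B and SESN2, stress sensors of the same kind of response, rose by 2.10 ± 0.32 and 1.69 ± 0.28. CCNG1, a cyclin induced by p53, was lower, with 664, 810 and 881 at 24 h, against 1484, 1710 and 1836 at 0 h (−1.10 ± 0.14; adjusted p = 4.8e-05). GAS1, a membrane protein of growth-arrested cells, fell by 0.66 ± 0.16. The list had 4 of 14 members up and 2 down, and its median was 0.12.

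Of 24 autophagy genes 5 rose and 0 fell (1 at an unadjusted p under 0.05), with a median of 0.17 and the same counts without the truncated 24 h array. SQSTM1, the cargo receptor p62, had 6759, 5664 and 5296 at 24 h, against 2809, 2421 and 1845 at 0 h (1.34 ± 0.14; adjusted p = 4.4e-06). GABARAPL1 and MAP1LC3B, ubiquitin-like proteins of the autophagosome membrane, rose by 1.83 ± 0.34 and 0.93 ± 0.15, ATG12 by 0.72 ± 0.14 and the receptor TAX1BP1 by 0.50 ± 0.14, which was not called with probe sets averaged. Without the full-length series 3 of the 24 were called up. Lysosomal genes moved both ways, with 6 of 38 up and 5 down. Up were CTSL (1.03 ± 0.15), a cathepsin, TFE3 (1.07 ± 0.18), a factor that drives lysosomal genes, and 4 subunits of the V-ATPase proton pump: ATP6V1C1, ATP6V0E1, ATP6V1B2 and ATP6V1D, at 0.94, 0.68, 0.62 and 0.61, of which ATP6V0E1 and ATP6V1D are uncertain. Down were the cathepsins CTSK and CTSC, by 1.60 and 0.65, the uncertain ceramidase ASAH1 by 0.59, NPC2, which moves cholesterol out of lysosomes, by 0.56, and the pump subunit ATP6V0E2 by 0.85. With the truncated 24 h array left out, 3 rose and 2 fell, and with probe sets averaged CTSC, ATP6V0E1 and ATP6V1D were not called.

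Zinc finger genes of the C2H2 class with a ZNF symbol, many of which silence transposons, formed the widest group. Of 404 tested, 45 rose (11.1%) and 5 fell (1.24%), with a median of 0.23, and 148 were higher in each series, against 50 lower in each. Without the truncated 24 h array 25 rose and 2 fell, with a median of 0.21. Most read dimly, at a median mean log2 of 6.74, and this family holds near-identical members, so single values are uncertain. ZNF267 had 369, 585 and 415 at 24 h, against 113, 99.2 and 114 at 0 h (2.04 ± 0.24; adjusted p = 1.1e-05), ZNF217 had 956, 1017 and 1136, against 338, 319 and 442 (1.51 ± 0.16), and ZNF567 had 547, 505 and 502, against 218, 181 and 208 (1.36 ± 0.19). ZNF618 was the most lowered, with 105, 105 and 115 at 24 h, against 266, 312 and 237 at 0 h (−1.32 ± 0.24). The other members that fell were ZNF692, ZNF467, ZNF395 and ZNF595, of which ZNF395 and ZNF595 were not called with probe sets averaged. Leaving out 1 series left 18 to 30 called up.

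Enzymes that write or erase histone methyl marks were called both ways. Of 46 tested, 9 rose and 3 fell, with a median of −0.05, and 6 and 2 without the truncated 24 h array. Of the 9, 6 are demethylases or their relatives: KDM7A (2.07 ± 0.27), KDM6B (1.59 ± 0.28), KDM6A (1.08 ± 0.19), KDM3A (0.95 ± 0.18), JMJD6 (0.88 ± 0.15) and KDM5B (0.52 ± 0.17), which kept its call in 3 of 14 alternatives. KDM6B, which removes the mark of Polycomb, had 239, 304 and 229 at 24 h, against 114, 67.6 and 78.7 at 0 h. The methyltransferase genes NSD1 (1.63 ± 0.25), SETD4, which is uncertain, and KMT2C were called up as well. All 3 that fell are methyltransferases: EHMT2 (−1.18 ± 0.23), its partner EHMT1 (−0.76 ± 0.21) and NSD2 (−0.71 ± 0.18). With probe sets averaged none of these 6 methyltransferase genes was called: NSD1 stood at 0.18, SETD4 at 0.42, KMT2C at 0.14, EHMT2 at −0.30, EHMT1 at −0.22 and NSD2 at −0.48 (adjusted p = 0.15 to 0.79), and the list then had 5 called up and 0 down.

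RNA processing and transport genes gave smaller shifts. Of 31 splicing factors of the SR and hnRNP families 0 rose (1 at an unadjusted p under 0.05) and 6 fell, with a median of −0.14, but without the truncated 24 h array 2 fell. HNRNPA3 was the clearest, with 829, 681 and 723 at 24 h, against 1132, 1305 and 1338 at 0 h (−0.76 ± 0.15; adjusted p = 0.0024). Of 27 nuclear pore genes 3 rose and 2 fell (median −0.16), and without the truncated 24 h array 3 rose and 0 fell. NUP58, a subunit of the central channel, had 2868, 1629 and 1274 at 24 h, against 373, 350 and 418 at 0 h (2.26 ± 0.20; adjusted p = 5.5e-07), and NUP98 and NUP35 rose by 1.23 ± 0.17 and 0.68 ± 0.14. NUP205 and NDC1 fell by 0.64 and 0.62. With probe sets averaged NUP58 stood at 0.52 (adjusted p = 0.064) and NUP98 at 0.38 (adjusted p = 0.14), and neither they nor NDC1 were called. Of 7 genes that host small nucleolar RNAs 4 rose and 0 fell (also 0 at an unadjusted p under 0.05), with a median of 0.54. ZFAS1, read by an uncertain probe set, had 4064, 4283 and 2908, against 1355, 1496 and 1475 (1.36 ± 0.15), and SNHG32 rose by 0.86 ± 0.15. Only 2 of the 7 were called without the truncated 24 h array.

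Genes that build ribosomes and proteins were called in both directions. Of 24 ribosome biogenesis genes 5 rose and 3 fell (median 0.24), and 2 and 0 were called without the truncated 24 h array. RRN3, the factor that brings RNA polymerase I to ribosomal DNA, had 841, 834 and 634 at 24 h, against 382, 416 and 379 at 0 h (0.96 ± 0.16; adjusted p = 0.00056). RRP12, NOP2, WDR43 and NOP58 rose by 0.98, 0.70, 0.61 and 0.57. FBL, fibrillarin, fell by 0.55 ± 0.14, as did RRS1 and TCOF1, by 0.66 each. With probe sets averaged RRP12, NOP58, RRS1 and TCOF1 were not called. Of 72 mitochondrial ribosomal protein genes 5 rose (6.94%) and 3 fell (4.17%), shares close to those of all genes. Of 17 aminoacyl-tRNA synthetases FARSA (0.62 ± 0.15) and YARS1 (0.46 ± 0.14) were called up and 0 down (1 at an unadjusted p under 0.05), and neither was called without the truncated 24 h array. YARS1 stood at −0.04 with all its probe sets averaged.

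Metabolic lists were short, so a few calls put some of their shares above those of all genes. Called up were 16.7% of serine and one-carbon genes, 18.2% of polyamine genes and 6.25% of purine and pyrimidine genes, against 7.31% of all genes. Called down were 0%, 9.09% and 18.8% in the same order, against 7.27%. The serine and one-carbon list had 2 of 12 up, PSAT1 (0.93 ± 0.17) of serine synthesis and ASNS (0.76 ± 0.15), and 0 down (1 at an unadjusted p under 0.05). ASNS makes asparagine and is no serine or one-carbon gene in the strict sense, so the 16.7% rests in part on it. In polyamine metabolism ODC1 and SMOX (0.81 ± 0.25), a spermine oxidase, rose, while SRM, the spermidine synthase, fell by 0.55 ± 0.15, and ODC1 alone was called without the truncated 24 h array. Purine and pyrimidine synthesis had 1 of 16 up and 3 down. CAD, which starts pyrimidine synthesis, had 261, 282 and 292 at 24 h, against 420, 583 and 601 at 0 h (−0.93 ± 0.19; adjusted p = 0.0036), and PAICS and PRPS2 fell by 0.58 and 1.02, while PRPS1 rose by 0.56. PAICS and PRPS1 lost their calls with probe sets averaged. CAD was the only member called without the truncated 24 h array.

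Cell surface and matrix lists came next. Of 53 semaphorins, plexins, ephrins, netrins and their receptors 7 fell and 3 rose, with a median of −0.21, and 5 and 2 without the truncated 24 h array. By series the median was −0.19, 0.05 and −0.37, so the truncated series did not share the lower median. PLXNA1, a semaphorin receptor, had 295, 158 and 267 at 24 h, against 484, 433 and 602 at 0 h (−1.11 ± 0.22; adjusted p = 0.0027), and PLXND1 and PLXNA2 fell by 1.31 ± 0.26 and 0.66 ± 0.17. EPHA2, an ephrin receptor, rose by 0.92 ± 0.17, its ligand EFNA1 by 0.79 ± 0.18 and the receptor ROBO4 by 1.91 ± 0.56. SEMA5A and SEMA6A, named above, EFNB3 (−1.22 ± 0.32) and NRP1 (−0.53 ± 0.16) completed the 7 that fell. Of these SEMA6A was at the floor on every 24 h array and passed the filter through its higher hours, so its call is a description. With probe sets averaged the list had 2 called up and 2 down, with PLXNA1, PLXND1, EFNB3, NRP1, ROBO4 and SEMA6A no longer called. Of 22 genes with an integrin symbol 5 fell and 1 rose, with a median of −0.26. ITGA10 (−1.44 ± 0.29), ITGA1 (−0.82 ± 0.22) and ITGA8 (−1.24 ± 0.39) are integrin subunits, whereas ITGBL1 and ITGB3BP carry a related symbol and are no integrins. ITGA2, a collagen-binding subunit, rose by 0.61 ± 0.15. Leaving out the truncated 24 h array, 2 fell and 0 rose, without the full-length series 1 fell, and with probe sets averaged ITGA8 and ITGA2 lost their calls.

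Of 20 proteoglycan and hyaluronan genes 4 fell and 1 rose, and the median was −0.01. HAS2, a hyaluronan synthase, had 286, 244 and 380 at 24 h, against 838, 648 and 464 at 0 h (−1.08 ± 0.23; adjusted p = 0.0039). LUM, lumican, had 1697, 1682 and 2367, against 3425, 2729 and 3311 (−0.73 ± 0.15), and BGN and DCN, both read by uncertain probe sets, fell by 0.86 and 0.75. BCAN, brevican, rose by 2.06 ± 0.54 and was not called with probe sets averaged, nor when the truncated 24 h array was left out. In a fit of the other series, leaving out full-length NRSF, 0 of the 20 were called in either direction. Of 37 cadherins and protocadherins 3 fell, PCDHB16, PCDHB5 and the uncertain CDH11, by 1.84, 0.81 and 0.83, and 0 rose (also 0 at an unadjusted p under 0.05), with a median of −0.35. The share called down, 8.11%, is close to that of all genes. Of 31 WNT pathway genes 4 fell and 0 rose (2 at an unadjusted p under 0.05). They were the inhibitors DKK1 (−0.97 ± 0.21) and SFRP1 (−0.96 ± 0.21), the DKK1 relative DKK3 (−0.80 ± 0.17) and the receptor FZD7 (−0.88 ± 0.18). The median of the WNT list was −0.20, but by series −0.33, 0.09 and −0.42, so the truncated series did not share the lower median. Without the truncated 24 h array 2 members fell, and DKK3 was not called with probe sets averaged. Markers of fibroblasts moved with these lists. PDGFRA, PDGFRB, LUM and DCN, were called down in 4 of 4 cases, by 1.06, 0.70, 0.73 and 0.75, and their summed signal, which was high in this line at both hours, was 3472 to 4347 at 24 h, against 6188 to 7372 at 0 h. LUM and DCN are members of the proteoglycan list as well. Their part in the surface and matrix results was not tested. The mesenchymal regulator PRRX1 and FN1, which is uncertain, fell by 1.20 and 1.43, while VIM and CD44 were not called.

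Among cytoskeletal genes, 0 of 23 actin and serum response factor targets rose (also 0 at an unadjusted p under 0.05) and 2 fell, TGFB1I1 and CALD1, by 0.67 and 0.58, and neither was called without the truncated 24 h array nor CALD1 with probe sets averaged. Of 18 genes with a tubulin symbol TUBA4A rose by 0.86 ± 0.19, and TUBB4B, which is uncertain, fell by 0.50. TUBGCP3 and TUBGCP2, which belong to the gamma-tubulin complex and are no tubulins, fell by 0.85 and 0.61, and all 3 that fell lost their calls with probe sets averaged. Protein turnover and transport were near the shares of all genes: 2 of 33 proteasome subunits rose (PSMD9 and PSMD12) and 1 fell (PSMB8), 2 of 43 ubiquitin and USP genes rose and 1 fell (USP48), and 1 of 20 vesicle coat genes rose (SAR1B) and 2 fell (COPG1 and SEC23A). Of these USP53 (1.53 ± 0.22) and USP12 (1.31 ± 0.18), deubiquitinases of the USP family, had the greatest changes. With probe sets averaged PSMD9, PSMD12, SAR1B, SEC23A and USP48 were no longer called.

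At 48 h, against the same 0 h arrays, the named genes stood differently from one another. IL24 differed by 4.40, 4.73 and 5.04 log2 (series in the same order), and HMOX1 by 3.10, 3.48 and 3.25. ARRDC4 stood at 0.18, 0.47 and 1.29 and CDKN1A at 0.53, 0.01 and 1.43. LGR5 stood at −1.74, −1.55 and −1.41, whereas HTR2B stood at 0.47, 0.40 and −0.42. These values share their 0 h arrays with the 24 h changes and come from 1 array each, with no test.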

How the data were processed

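RNA of SK-N-AS cells was hybridized to 9 one-colour Affymetrix arrays of 54613 non-control probe sets. The deposited values are linear intensities (signal). Per the submitters' processing notes the authors used GCOS, whose version and settings were not stated. The trimmed mean of each array is 150.02, so the deposited signals were already scaled. Signals were floored at 8.266, the 25th percentile of all values, and taken to log2. The 32768 probe sets with a mean log2 above 4.195 (the 40th percentile) were tested, and those at or above 7.613 (the 80th percentile) formed the bright tier. A model with hour and series was fitted to 9 arrays in limma 3.58.1 under R 4.3.3 with a variance trend, 4 residual and 19.3 total degrees of freedom. The other 15.3 come from the variances of all tested probe sets. Tests were two-sided with Benjamini-Hochberg adjustment over all tested probe sets, and within the fit the 48 h arrays served only the estimate of spread. They also entered the floor, the filter, the bright tier and the choice of each gene's brightest probe set. The number of arrays limits the precision.

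Genes came from the platform annotation, with symbols updated to those of RefSeq through Entrez gene identifiers. Of the non-control probe sets 41091 name 1 gene, 1801 several and 11721 none, and a gene was read by its brightest probe set. Probe sets that may cross-hybridize are called uncertain. Named genes were called genes with 1 sign in 3 series, ranked by the smallest of the 3 changes (20 each way in the bright tier, 10 each way below it), per list the 4 members with the greatest absolute change, and the 5 genes with the widest opposite calls. Other list members that are named were chosen after their values were seen. Members, lists and motifs were chosen with earlier results of these data known. The model was tested on simulated data. Alternatives varied the arrays fitted, block, variance trend, scaling, floor, filter, probe sets and series left out. A further gene list is not reported here.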

Additional observations from a re-analysis of the deposited data

Results flagged for a closer look

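In 5 gene lists the median change between 24 and 0 h in untreated cells had the opposite sign to the medians of both construct series. Polyamine metabolism stood at −0.24 log2 in the full-length series and −0.20 in the truncated series, and at 0.23 in untreated cells. Splicing factors of the SR and hnRNP families stood at −0.20 and −0.21 in the construct series, and at 0.0458 in untreated cells. Actin and serum response factor target genes stood at −0.21 and −0.29, and at 0.0537 in untreated cells. Proteoglycans and hyaluronan synthases stood at −0.18 and −0.39, and at 0.0109 in untreated cells. Histone methylases and demethylases stood at 0.12 and 0.10, and at −0.13 in untreated cells. Each median comes from 1 array against 1 array, and the difference between the series was not tested.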

How the results depend on the processing

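The calls rest most on the variance trend and the filter. Without the trend 183 probe sets were called up and 60 down (bright tier 104 and 31), and without a filter 727 and 571 (bright tier 559 and 457). Leaving out 1 series gave 952 to 1219 up and 881 to 1214 down, and 724 to 869 and 675 to 935 in the bright tier. Without the truncated 24 h array, 1156 were called up and 1081 down, with 788 down in the bright tier. Probe sets 2-fold apart in each series numbered 387 up and 207 down with the filter at the 60th percentile, which tests fewer probe sets. With 1 series left out they numbered 1070 to 1556 up and 958 to 1130 down, and without the truncated 24 h array 1070 and 1130, since 2 series are then asked for in place of 3. None of the calls shared with the reported fit changed sign under the alternatives that refitted all probe sets. With all probe sets of a gene averaged, 5 named genes changed sign: VARS1 to 0.10, YARS1 to −0.0379, ZNF595 to 0.28, ZNF207 to −0.17 and NRP1 to 0.22, and the cause was not tested. Without the replicate block 1713 were called up and 1646 down (bright tier 1176 and 1197), so the paired fit made more calls. Deviations of the same series at 24 and 0 h correlated at 0.07, −0.08 and 0.02 across probe sets, below 0.1 in every series. Below the bright tier, signal close to background limits what single probe sets can show.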
